A study of Mus musculus with 6 samples.

Results

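Megakaryocytes are the bone marrow and spleen cells that make platelets, and their genes were followed here as a list of 35 in mouse leukaemia cells. The 35 genes were chosen by symbol for their known place in the megakaryocyte and platelet lineage, with earlier results of these data known. All 35 had a row in the deposited table of 53819 genes. The list covers surface adhesion receptors, receptors for platelet agonists, granule and secreted proteins, signalling and lipid mediator genes, and genes of cytoskeleton and membrane shape. Of the 35, 33 passed the filter on low counts and were tested, and P2ry12 and F13a1 did not. RNA was sequenced from 6 libraries, 3 labelled SLC6A6 KO (KO1 to KO3) and 3 labelled SLC6A6 WT (WT1 to WT3). Mice of both groups had received primary leukaemia cells driven by the BCR-ABL fusion together with NUP98-HOXA9, a mouse model of the blast crisis of chronic myeloid leukaemia (bcCML), and leukaemia cells were then sorted from the spleen. The series title, unlike the sample labels, calls the change a knock-down. The sources used here do not give the allele or construct, the sorting marker, the age of the mice or whether each library is from its own mouse. The p-values therefore describe the spread among these 6 libraries alone, and part of that spread may be technical.

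Megakaryocytes arise from stem and progenitor cells that also give rise to red cells, under transcription factors such as GATA1, FLI1 and NFE2. Platelets bind exposed von Willebrand factor and collagen through the glycoprotein Ib-IX-V complex, glycoprotein VI and integrin alpha 2 beta 1. Signals from these receptors and from thrombin and nucleotide receptors then activate integrin alpha IIb beta 3, the fibrinogen receptor, and release granules. Several of these genes, among them Vwf, Selp, Mmrn1 and Cavin2, are also known in endothelium, Vwf and Itga2b in blood stem cells, Itga2 in NK cells, and Pf4, Plek and F13a1 in other myeloid cells.

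Library totals lay between 42829294 and 49537098 counts, so that 3 counts equal 0.0594 to 0.0727 CPM (counts scaled to a common library size, here after TMM scaling). Slc6a6, the taurine transporter gene named in the labels, had 125, 132 and 133 CPM in the KO libraries (here and below in the order 1, 2, 3) against 151, 145 and 145 CPM in WT (log2 fold change −0.18 ± 0.07, SE, adjusted p = 0.196 in edgeR's quasi-likelihood test). A count over the whole gene does not reveal a loss of one stretch of the transcript. Summed over 4 Y-linked genes (Kdm5d, Uty, Eif2s3y and Ddx3y), each KO library held 10274 to 11236 counts, and the WT libraries held 0, 0 and 1. Genotype and sex-linked expression therefore cannot be told apart in any result given here. Over all 15232 genes tested, 250 were higher and 293 lower in KO.

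The megakaryocyte and platelet genes split in both directions. In edgeR's quasi-likelihood test, at a Benjamini-Hochberg adjusted p below 0.05 over all genes tested, Itga2, Mmrn1, Cavin2, Vwf and Rasgrp2 rose in the KO libraries, and Pf4 and Plek fell. These 5 rises are 15.2% of the 33 tested genes, beside 1.64% of all genes tested, and the 2 falls are 6.06%, beside 1.92%. Because the list was chosen with earlier results of these data known, such shares are description only. The other 26 did not pass the test. At an unadjusted p below 0.05, 9 were higher and 11 lower, beside 22.0% of all genes tested in either direction. DESeq2 called 8 higher (7.06% of all genes) and 8 lower (6.05% of all genes), the same 7 among them. All 3 KO values lay above all 3 WT values in 9 of the 33 (13.6% of all genes tested) and below them in another 9 (14.4% of all genes tested), and the groups overlapped in 15. The median log2 fold change of the 33 was −0.01, with quartiles of −0.78 and 1.43, against a median of 0.01 and quartiles of −0.23 and 0.31 over all genes tested. In bulk RNA, fewer cells of a type and less RNA per cell cannot be told apart.

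**Figure D1:**
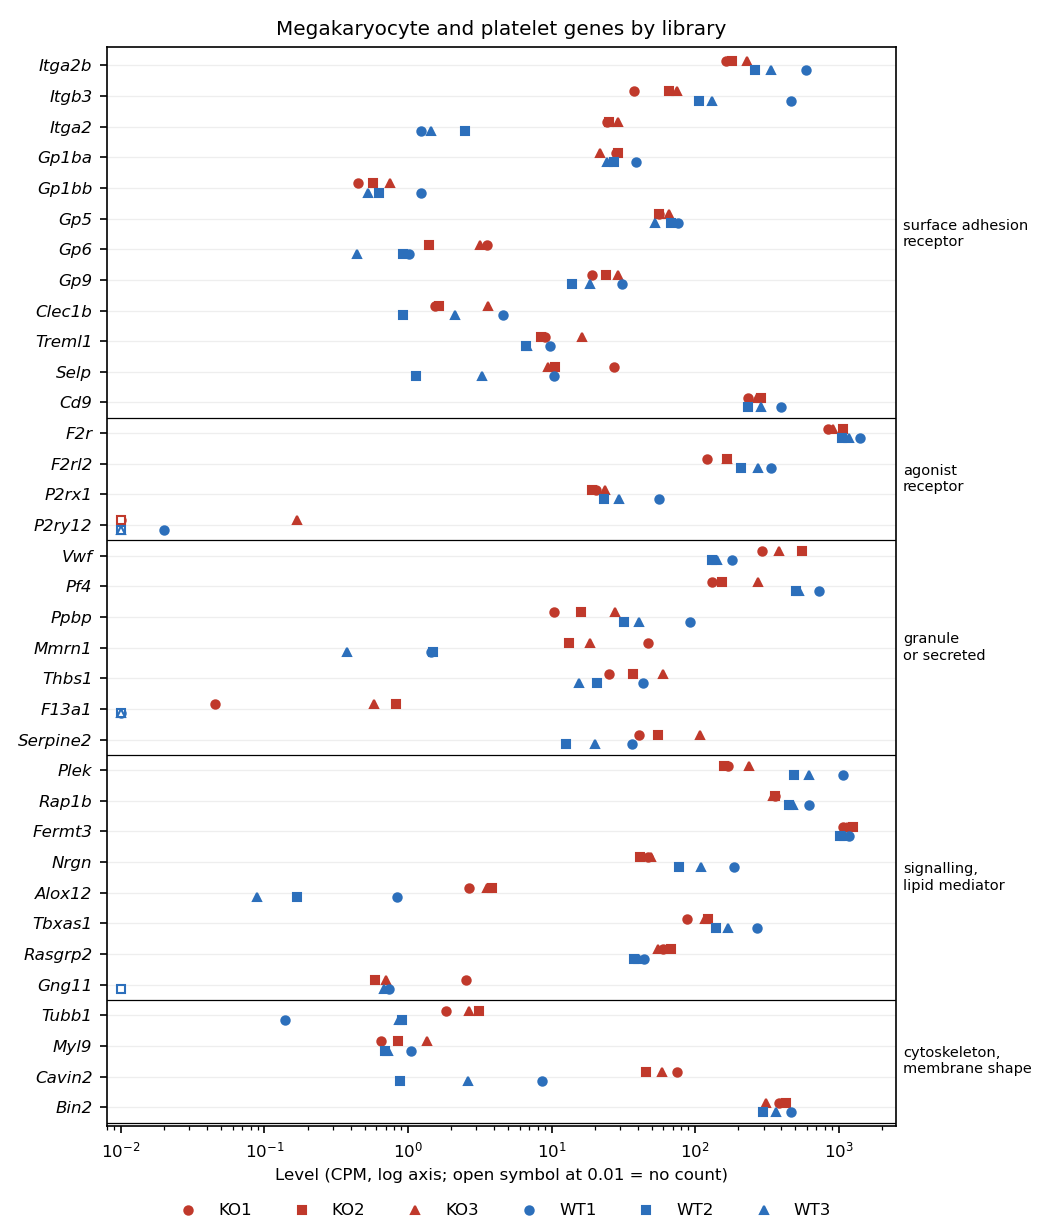
Level of each of the 35 megakaryocyte and platelet genes in each library, in CPM on a log axis, ordered by role, with KO libraries in red and WT libraries in blue and an open symbol where no read was counted. The KO values of Itga2 sit between 24.3 and 28.9 CPM against 1.23 to 2.51 in WT, while those of Plek sit between 160 and 237 CPM against 486 to 1075 in WT.

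Promoter sequences are shown for 5 of these genes because they differ in direction: Itga2 and Mmrn1 rose, Pf4 fell, Itga2b was lower in every KO library without passing the test, and Gp1ba overlapped between the groups. Each is the 250 bases before the annotated start, 5′ to 3′ on the strand of the gene, from RefSeq on GRCm38.p6. Capitals mark letters of the GATA motif (GATA with A or T before it and A or G after it) or of the ETS motif (GGAAG with A or C before it), on either strand.
Itga2 (chr13:114932101-114932350, minus strand): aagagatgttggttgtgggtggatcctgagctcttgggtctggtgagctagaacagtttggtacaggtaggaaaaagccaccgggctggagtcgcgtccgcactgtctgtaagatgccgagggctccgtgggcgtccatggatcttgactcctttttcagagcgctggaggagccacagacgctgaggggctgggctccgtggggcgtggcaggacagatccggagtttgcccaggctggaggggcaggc
Mmrn1 (chr6:60944067-60944316, plus strand): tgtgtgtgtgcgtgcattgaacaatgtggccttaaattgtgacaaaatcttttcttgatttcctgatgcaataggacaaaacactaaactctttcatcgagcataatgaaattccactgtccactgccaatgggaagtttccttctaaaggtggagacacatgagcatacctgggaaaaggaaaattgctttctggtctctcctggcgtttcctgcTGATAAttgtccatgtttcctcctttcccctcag
Pf4 (chr5:90772185-90772434, plus strand): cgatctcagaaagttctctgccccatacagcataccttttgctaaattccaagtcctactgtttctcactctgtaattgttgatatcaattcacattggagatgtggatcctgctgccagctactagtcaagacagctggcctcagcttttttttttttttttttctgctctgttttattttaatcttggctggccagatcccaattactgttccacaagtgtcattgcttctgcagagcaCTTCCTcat
Itga2b (chr11:102469884-102470133, minus strand): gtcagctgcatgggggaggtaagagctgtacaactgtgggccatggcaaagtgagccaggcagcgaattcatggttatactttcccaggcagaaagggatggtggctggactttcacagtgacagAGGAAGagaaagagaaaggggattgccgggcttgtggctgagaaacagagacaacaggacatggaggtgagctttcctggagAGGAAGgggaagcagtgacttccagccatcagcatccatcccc
Gp1ba (chr11:70638872-70639121, plus strand): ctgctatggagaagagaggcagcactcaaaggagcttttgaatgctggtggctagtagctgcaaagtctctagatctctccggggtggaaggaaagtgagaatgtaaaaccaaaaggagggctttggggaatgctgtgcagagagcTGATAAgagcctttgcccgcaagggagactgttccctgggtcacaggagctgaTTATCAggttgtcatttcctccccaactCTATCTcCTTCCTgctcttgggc
The Gp1ba window holds 3 GATA matches, beginning 104, 51 and 23 bases before the start, and 1 ETS match at 16 bases. In the window of Mmrn1 there is 1 GATA match at 34 bases, in that of Pf4 1 ETS match at 9 bases, in that of Itga2b 2 ETS matches at 125 and 43 bases, and in that of Itga2 no match. Windows were on hand for 30 of the 35 genes, 32 windows in all. A GATA match was found in 8 of the 32, against 26.5% of 32851 windows of all genes, an ETS match in 17 (53.1%, against 39.2%), and both in 4 (12.5%, against 9.2%). The 4 with both belong to Gp1ba, Gp1bb, Gp5 and F2rl2, none of which passed the test between KO and WT, and no GATA match overlapped an ETS match. A match describes letters only and shows no binding.

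Among the 12 surface adhesion receptors, Itga2 was the only gene to pass the test. Itga2, the alpha 2 chain of the collagen-binding integrin, was at 24.3, 25.1 and 28.9 CPM in KO and at 1.23, 2.51 and 1.44 CPM in WT. The groups stood far apart, with a 15.1-fold rise (log2 fold change 3.92 ± 0.31, SE, n = 3 against 3, adjusted p = 0.00317). Itgb1, named after its value was seen, encodes the beta 1 chain of this integrin and had overlapping groups. It was at 440, 413 and 416 CPM in KO and at 441, 412 and 387 CPM in WT (log2 fold change 0.03 ± 0.08, adjusted p = 0.844). Itga2b and Itgb3 encode the chains of the fibrinogen receptor. Itga2b was at 165, 181 and 229 CPM in KO and at 594, 261 and 337 CPM in WT (log2 fold change −1.05 ± 0.30, adjusted p = 0.102). Itgb3 was at 37.7, 65.7 and 75.3 CPM in KO and at 468, 107 and 130.5 CPM in WT (−1.98 ± 0.59, adjusted p = 0.116). In both genes every KO value lay below every WT value, WT1 was the highest library, and neither difference passed the test. Without WT1 the log2 fold changes were −0.66 for Itga2b and −1.02 for Itgb3, at adjusted p-values of 0.105 and 0.121.

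The subunits of the glycoprotein Ib-IX-V complex, the von Willebrand factor receptor, did not pass the test and overlapped between the groups. Gp5 was at 56.5, 55.9 and 65.4 CPM in KO and at 76.6, 68.2 and 52.6 CPM in WT, with a 95% interval of its log2 fold change from −0.51 to 0.21. Gp1ba was at 28.0, 29.1 and 21.8 against 38.5, 27.3 and 24.2 CPM (interval −0.68 to 0.30). Gp9 was at 19.3, 24.0 and 29.0 against 31.0, 13.8 and 18.7 CPM (interval −0.54 to 0.92). WT1 was the highest of the 6 libraries for each of these subunits. Gp1bb had 20 to 62 counts per library, and its exons overlap those of Sept5 on the same strand in GENCODE M21, so its interval (−1.66 to 0.79) is wide and its reads may be shared.

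Receptors for collagen and podoplanin were low. Gp6, the signalling collagen receptor, was at 3.53, 1.39 and 3.20 CPM in KO and at 1.01, 0.927 and 0.442 CPM in WT, without overlap and with an adjusted p of 0.111 (log2 fold change 1.77 ± 0.52). Clec1b, the podoplanin receptor CLEC-2, was at 1.53, 1.66 and 3.59 against 4.596, 0.927 and 2.12 CPM. The exons of Clec1b overlap those of Clec9a on the same strand in GENCODE M21, so its reads may be shared. Treml1, a receptor of platelet alpha granules, was at 8.93, 8.43 and 16.4 against 9.75, 6.64 and 6.70 CPM. Selp, the adhesion molecule P-selectin that granules carry to the surface, was at 27.3, 10.5 and 9.40 CPM in KO and 10.4, 1.14 and 3.27 CPM in WT, so WT1 reached the lower KO values (log2 fold change 1.67 ± 0.80, adjusted p = 0.275). Its fitted ratio was 3.18-fold with all libraries, 7.07-fold without WT1 and 2.01-fold without KO1. Cd9, a tetraspanin of many blood cells, was at 235, 290 and 271 against 394, 233 and 290 CPM (interval −0.65 to 0.24).

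No receptor for platelet agonists passed the test in edgeR. The 3 tested genes had negative log2 fold changes, all at an unadjusted p below 0.05 (22.0% of all genes in either direction), and DESeq2 called 1 of them lower, F2rl2 (6.05% of all genes). F2rl2, which encodes the thrombin receptor PAR3, was at 122, 168 and 167 CPM in KO and at 338, 209 and 275 CPM in WT, without overlap (log2 fold change −0.85 ± 0.20, adjusted p = 0.0685). F2r, the thrombin receptor PAR1, was at 848, 1068 and 921 CPM in KO and at 1412, 1064 and 1190 CPM in WT. Its groups met at KO2 and WT2 (−0.37 ± 0.13, adjusted p = 0.159). P2rx1, the ATP-gated channel of platelets, was at 20.5, 19.1 and 23.5 against 55.8, 23.2 and 29.3 CPM (−0.78 ± 0.32, adjusted p = 0.211), and its log2 fold change was −0.34 without WT1. P2ry12, the ADP receptor, had 7 counts in KO3, 1 in WT1 and none in the other libraries, which is at or near the limit of 3 counts in every library but KO3. Its exons overlap Med12l on the opposite strand, and the library chemistry does not mark strand.

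The granule and secreted proteins moved in opposite directions: Vwf and Mmrn1 rose and Pf4 fell. Vwf, the plasma protein that tethers platelets to collagen, was at 290, 553 and 384 CPM in KO and at 180, 132 and 142 CPM in WT. It rose 2.703-fold (log2 fold change 1.43 ± 0.24, adjusted p = 0.0312), with every KO value above every WT value and KO2 highest. Mmrn1, the alpha granule protein multimerin 1 that carries factor V, was at 47.2, 13.2 and 18.5 CPM in KO and at 1.45, 1.496 and 0.376 CPM in WT. Its fitted rise was 23.6-fold (4.56 ± 0.70, adjusted p = 0.0253), and without KO1, its highest library, 14.3-fold (adjusted p = 0.0631).

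Pf4 and Ppbp, neighbouring genes that encode the platelet chemokines PF4 (CXCL4) and PPBP (CXCL7), were both lower in every KO library. Pf4 was at 131, 155 and 276 CPM in KO and at 730, 503 and 530 CPM in WT, and fell by 68.1% (log2 fold change −1.65 ± 0.30, adjusted p = 0.0361). Ppbp was at 10.5, 15.9 and 27.6 CPM in KO and at 92.4, 31.9 and 41.0 CPM in WT (−1.61 ± 0.49, adjusted p = 0.120). The fitted differences of the pair were nearly the same size, but KO3 and WT2 came close for Ppbp and it did not pass the test. In both genes KO3 was the highest KO library and WT1 the highest WT library.

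Other secreted products did not pass the test. Serpine2, the thrombin inhibitor protease nexin 1, was at 40.6, 54.8 and 107.7 CPM in KO and 36.3, 12.7 and 20.1 CPM in WT, without overlap (log2 fold change 1.56 ± 0.48, adjusted p = 0.123). Thbs1, the adhesive glycoprotein thrombospondin 1, was at 25.1, 36.7 and 59.5 against 43.3, 20.8 and 15.5 CPM, with WT1 inside the KO range (0.60 ± 0.44, adjusted p = 0.485). F13a1, the A chain of the clot-stabilising factor XIII, had 2, 38 and 24 counts in KO and none in WT. It was not tested. Set against the floor of 3 counts for the WT group as a whole, the summed KO counts were at least 23.2-fold higher, on counting error alone. This ratio rests on KO2 and KO3, as KO1 itself held fewer than 3 counts. The summed macrophage and monocyte markers were also above WT in every KO library, at 184, 75.4 and 71.5 CPM against 49.75, 35.15 and 29.98 CPM. Of these 12 genes, 10 lay above WT in every KO library, beside 13.6% of all genes tested. The other 2 overlapped between the groups and had negative log2 fold changes. The part of these markers in the F13a1 counts was not tested.

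In the signalling group Plek fell and Rasgrp2 rose. Plek, the protein kinase C substrate pleckstrin, was at 169, 160 and 237 CPM in KO and at 1075, 486 and 620 CPM in WT. It fell by 74.0% (log2 fold change −1.95 ± 0.31, adjusted p = 0.0272), with a wide gap between the groups. Cnrip1, whose exons overlap Plek on the opposite strand in GENCODE M21, had no more than 1.71 CPM in any library. Rasgrp2, the calcium-dependent exchange factor that activates Rap1, was at 59.7, 68.1 and 55.3 CPM in KO and at 44.2, 37.5 and 40.7 CPM in WT. The rise was 1.49-fold (0.58 ± 0.12, adjusted p = 0.0484), with little spread within either group.

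Rap1b, the small GTPase that RASGRP2 activates, lay on the other side. It was at 359, 358 and 350 CPM in KO and at 617, 450 and 483 CPM in WT, without overlap, and did not pass the test (log2 fold change −0.54 ± 0.12, adjusted p = 0.0611). Fermt3, kindlin-3, which binds the tail of beta 3 integrin, was at 1069, 1266 and 1140 against 1184, 1017 and 1100 CPM, with an interval from −0.14 to 0.29. Along this route to the integrin, Rasgrp2 rose, Rap1b, Itga2b and Itgb3 were lower in every KO library without passing the test, and Fermt3 overlapped between the groups.

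Nrgn, the calmodulin-binding protein neurogranin, was at 46.7, 41.5 and 49.1 CPM in KO and 188, 77.7 and 110 CPM in WT, just outside the threshold (log2 fold change −1.45 ± 0.30, adjusted p = 0.0510). Its adjusted p was 0.0459 without WT1 and 0.0358 without WT2, and 0.150, 0.0863, 0.129 and 0.133 without KO1, KO2, KO3 and WT3. Tbxas1, which makes thromboxane A2, was at 88.4, 123 and 117 against 272, 140 and 168 CPM (−0.82 ± 0.25, adjusted p = 0.125). Alox12, the platelet 12-lipoxygenase, was low in WT, at 0.832, 0.169 and 0.0884 CPM against 2.65, 3.85 and 3.56 CPM in KO. Its groups did not overlap, and the fitted ratio was 9.13-fold with all libraries and 25.1-fold without WT1 (adjusted p = 0.0781 and 0.0313). Ptgs1, the platelet cyclooxygenase that also acts on arachidonic acid, named after its value was seen, had overlapping groups (log2 fold change −0.31 ± 0.36, adjusted p = 0.672). Gng11, a G protein gamma subunit, had 0 counts in WT2 and 27 to 113 in the other libraries.

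Of the genes of cytoskeleton and membrane shape, Cavin2 rose. Cavin2, a coat protein of caveolae first described as a serum deprivation response protein, was at 74.6, 45.7 and 58.6 CPM in KO and at 8.60, 0.885 and 2.61 CPM in WT. Its fitted rise was 14.7-fold (log2 fold change 3.88 ± 0.75, adjusted p = 0.0428), and the WT libraries differed among themselves, so that it was 33.8-fold without WT1. Tubb1, the beta 1 tubulin of the platelet rim, was at 1.84, 3.13 and 2.67 CPM in KO and 0.139, 0.906 and 0.862 CPM in WT, without overlap (4.01-fold, adjusted p = 0.149). It is one of 2 tested genes of the list, with Itga2, for which WT1 lay below the mean of WT2 and WT3. Bin2, a membrane-curving protein of blood cells, was at 387, 429 and 311 against 467, 300 and 367 CPM (interval −0.44 to 0.42). Myl9, a regulatory myosin light chain, had 29 to 56 counts in every library and overlapping groups.

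**Figure D2:**
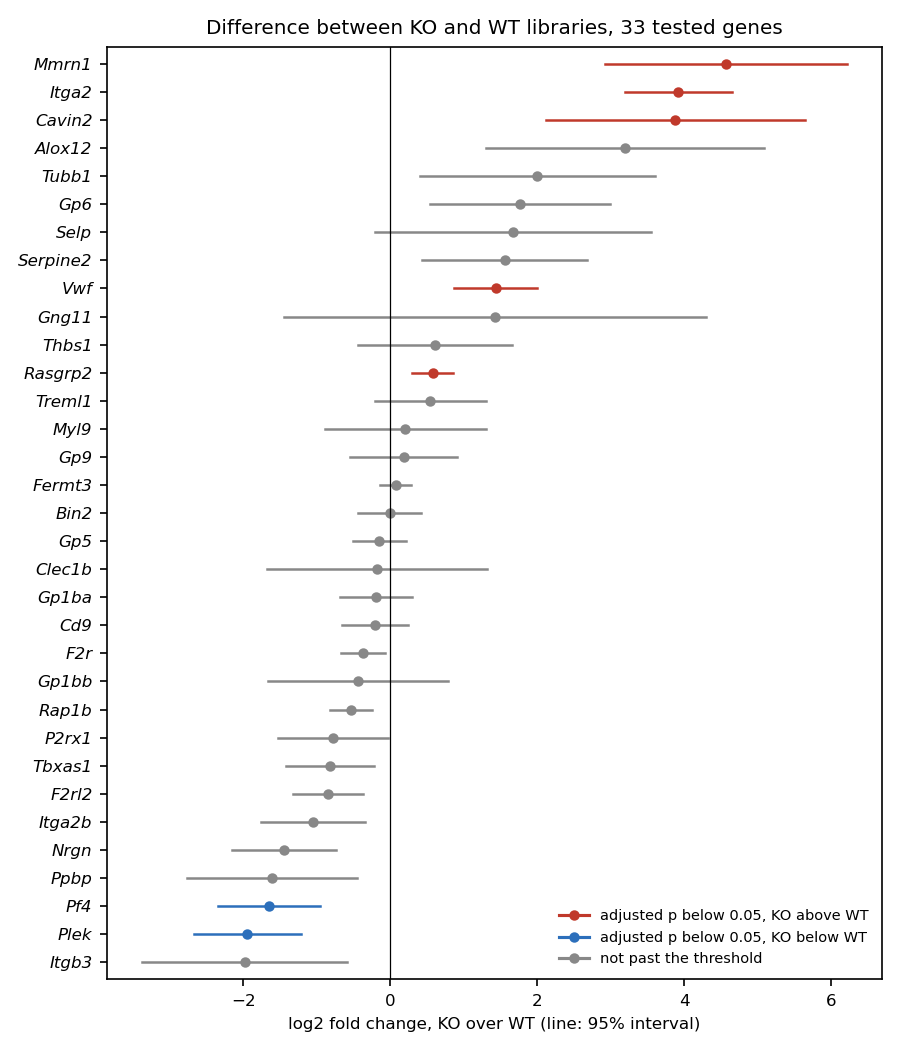
Log2 fold change of the 33 tested genes, KO over WT, with 95% intervals from edgeR's quasi-likelihood fit; red and blue mark genes past an adjusted p of 0.05. Values run from −1.98 for Itgb3 to 4.56 for Mmrn1, and 16 are positive and 17 negative.

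The calls depended on the libraries included. Itga2 passed the test in all 6 fits that left out 1 library, with adjusted p-values between 0.00282 and 0.0362. Vwf passed without KO1 and without KO2, and had adjusted p-values of 0.0847 without KO3, 0.0570 without WT1, 0.0898 without WT2 and 0.129 without WT3. Mmrn1 passed only without KO2, and reached 0.0631, 0.0610, 0.0646, 0.0653 and 0.0898 without KO1, KO3, WT1, WT2 and WT3. Cavin2 passed only without WT1, and its adjusted p was 0.123, 0.0554, 0.109, 0.0533 and 0.159 without KO1, KO2, KO3, WT2 and WT3. Plek passed without WT1 and without WT2, and had 0.101, 0.0519, 0.0610 and 0.0943 without KO1, KO2, KO3 and WT3. Pf4 passed only without KO3, with 0.100, 0.0649, 0.0742, 0.0720 and 0.116 without KO1, KO2, WT1, WT2 and WT3. Rasgrp2 passed in none, with adjusted p-values of 0.132, 0.0715, 0.0880, 0.0741, 0.122 and 0.167 without KO1, KO2, KO3, WT1, WT2 and WT3. All 7 kept their direction in each of the 6 fits.

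Counted over the list, 2 genes were higher without KO1 (0.295% of all genes tested in that fit) and 0 lower (0.395%, with 9 at an unadjusted p below 0.05). Without KO2, 3 were higher (2.32%) and 0 lower (1.55%, with 10 at an unadjusted p below 0.05). Without KO3, 1 was higher (0.237%) and 1 lower (0.330%). Without WT1, 3 were higher (0.676%) and 2 lower (0.927%), and Alox12 and Nrgn were among them. Without WT2, 1 was higher (0.424%) and 2 lower (0.798%), and without WT3, 1 higher (0.0810%) and 0 lower (0.181%, with 11 at an unadjusted p below 0.05). For each 0 in these edgeR fits, DESeq2 with all libraries called 8 lower. RLE scaling gave 5 higher (1.66%) and 2 lower (1.90%), no filter on low counts 4 higher (0.995%) and 2 lower (1.18%), and a minimum of 1 CPM in 3 libraries 5 higher (2.17%) and 4 lower (2.93%).

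**Figure D3:**
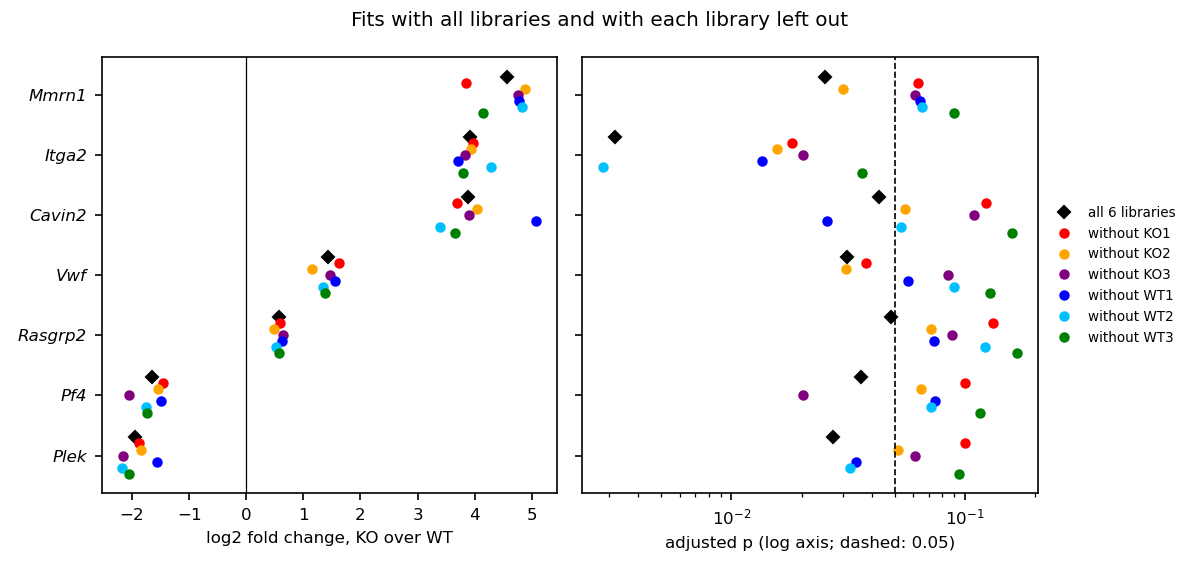
Log2 fold change (left) and adjusted p on a log axis (right) of the 7 genes past the test, with all 6 libraries (black diamond) and with each library left out in turn (coloured points). Directions hold throughout, and of the 7 genes Itga2 alone has all its points below the dashed line at 0.05.

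WT1 stood apart from the other WT libraries in this list. It was the highest WT library for 30 of the 33 tested genes (90.9%), against 39.2% of all genes tested. The ratio of WT1 to the mean of WT2 and WT3 had a median of 1.54 over the 33 genes and of 1.00 over all genes tested. The excess was present on both sides of the comparison: Itgb3, lower in every KO library, was 3.94-fold above the other WT libraries in WT1, and Cavin2, which rose in KO, 4.92-fold. Alox12 had a ratio of 6.48, Selp 4.73, Clec1b 3.02 and Ppbp 2.54. Itga2 and Tubb1 had ratios of 0.623 and 0.157. With WT1 left out, the KO values lay above WT2 and WT3 in 13 of the 33 genes (39.4%, against 20.2% of all genes tested) and below them in 9 (27.3%, against 20.9%). With fewer WT libraries, more genes of any kind have groups that do not overlap.

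**Figure D4:**
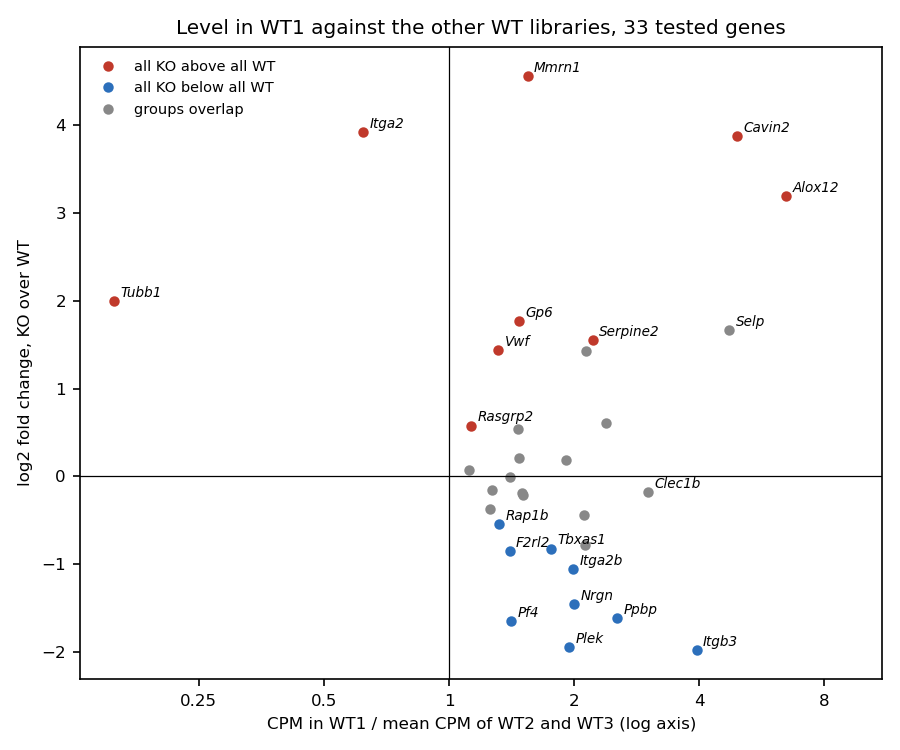
Level in WT1 relative to the mean of WT2 and WT3 (log axis) against the log2 fold change between KO and WT for the 33 tested genes, coloured by whether the groups overlap. All but Itga2 and Tubb1 lie to the right of a ratio of 1.

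Other genes of the lineage, from 4 lists of 99 genes of which 97 were tested, gave 1 rise and 2 falls. These 3 calls are 3.09% of the 97, near the 3.56% of all genes tested. DESeq2 called 8 of the 97 higher and 8 lower, and its shares over all genes were 7.06% and 6.05%. Of a list of 17 genes made up mainly of megakaryocyte transcription factors, Nfe2 rose and 0 fell, and 15 of the 17 had a positive log2 fold change (median 0.29). Nfe2, a transcription factor needed for platelet release, was at 609, 524 and 549 CPM in KO and at 408, 395 and 391 CPM in WT (1.41-fold, adjusted p = 0.0265). No member of this list was highest in WT1. With DESeq2, 3 of the 17 were called higher and 0 lower, and at an unadjusted p below 0.05 in edgeR 6 were higher and 0 lower. All 15 genes of an erythroid list, described below, also had a positive log2 fold change (median 1.68). The part of red cell precursors in the differences of the 17 genes was not tested.

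Of 35 tested platelet receptors and signalling genes 1 fell and 0 rose (2.86% called, against 3.56% of all genes), with a median of 0.00. Fcer1g, the signalling chain that pairs with glycoprotein VI, was at 35.3, 20.4 and 34.6 CPM in KO and 141, 64.8 and 80.7 CPM in WT and fell by 68.5% (adjusted p = 0.0474), while Gp6 itself lay higher in KO. In DESeq2 2 genes of this list were higher and 3 lower, against 7.06% and 6.05% of all genes. Of 26 tested genes of granule formation, cargo and release 1 fell and 0 rose, with a median of 0.09. Vamp8, the main vesicle fusion protein of platelet secretion, was at 318, 323 and 320 CPM in KO and 436, 433 and 430 CPM in WT, a fall of 26.0% with very little spread (adjusted p = 0.0204). DESeq2 called 1 of these genes higher and 1 lower. Of 19 genes of the platelet cytoskeleton and integrin linkers none passed edgeR's test, 3 were higher and 5 lower at an unadjusted p below 0.05, and DESeq2 called 2 higher and 4 lower. Those with the smallest p were Vcl, vinculin, at 83.6, 84.2 and 85.2 against 225, 128 and 141 CPM (adjusted p = 0.0547), and Tpm1, a tropomyosin, at 195, 158 and 180 against 257, 234 and 221 CPM (adjusted p = 0.0764).

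The summed markers of some other cell types also differed between the groups. The endothelial list of 13 genes summed to between 80.2 and 96.5 CPM in KO and between 60.7 and 69.8 CPM in WT, with 0 of 5 tested genes past the test in edgeR (1 higher at an unadjusted p below 0.05, and 1 in DESeq2). Of that list Cdh5, Cldn5, Robo4, Sox17 and Ptprb had no count in any library, and Kdr, Flt1 and Emcn stayed below 0.414 CPM. Tek, also a stem cell gene, was at 18.7, 15.3 and 6.38 CPM in KO and at 3.67, 0.927 and 2.37 CPM in WT. In every library the larger part of the endothelial sum came from the remaining genes of the list, which are not named here. Beside the rise of Vwf, Mmrn1 and Cavin2, the blood stem and progenitor list of 8 genes summed to between 155 and 294 CPM in KO. In WT it summed to between 80.4 and 131.5 CPM. Of its 6 tested genes, Kit and Cd27 passed the test as higher. Not all moved this way: 5 had a positive log2 fold change and 1 a negative one, of −2.38. In DESeq2 4 were called higher and 1 lower, against 7.06% and 6.05% of all genes. Beside the rise of Itga2, the T and NK list of 11 genes summed to between 723 and 1039 CPM in KO and between 694 and 853.5 CPM in WT, overlapping between the groups. Of its 8 tested genes, 5 lay above WT in every KO library (13.6% of all genes tested) and 0 below (14.4% of all genes tested). The median log2 fold change of the 8 was 3.25, and Cd3d and Cd3e passed the test as higher. The 5 genes above WT in every KO library (Cd3d, Cd3e, Cd3g, Trac and Klrd1) had at most 5.896 CPM in any library. The larger part of this sum was Nkg7, at 690 to 1033 CPM over the 6 libraries, the NK receptor gene Klrb1c was at 1.17, 0.849 and 0.557 against 6.06, 0.906 and 2.28 CPM, and Ncr1 had no count in WT and at most 0.473 CPM in KO. The stromal list of 6 genes, which bears on Thbs1, Serpine2 and Myl9, stayed between 0.414 and 5.02 CPM in all libraries, with Col3a1 at 0.

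Erythroid and myeloid lists also differed among the libraries. The erythroid list of 15 genes summed to 24710, 8004 and 28140 CPM in KO and to 2395, 10980 and 6080 CPM in WT. All 15 had a positive log2 fold change (median 1.68). In edgeR 9 were higher at an unadjusted p below 0.05 (22.0% of all genes tested in either direction) and 0 passed the test. DESeq2 called 1 higher (7.06% of all genes). The 9 became 15 without KO2, 13 without WT2, 4 without WT1, and 0 without KO1, KO3 or WT3. The neutrophil list of 10 genes summed to 199, 21.2 and 83.8 CPM in KO and to 840, 164 and 123 CPM in WT, so that WT1, the highest WT library for most of the megakaryocyte and platelet genes, had the lowest erythroid and the highest neutrophil sum. The mast cell and basophil list of 8 genes was also highest in WT1, at 130.5 CPM against 45.6 to 74.1 CPM in the other 5 libraries. Tpsb2 was at 0 in all, and Hdc was past the test as lower in KO. Of its 7 tested genes, 3 had a positive and 4 a negative log2 fold change (median −0.01). The macrophage and monocyte list of 12 genes summed to between 71.5 and 184 CPM in KO and between 29.98 and 49.75 CPM in WT, with Csf1r and Mrc1 past the test as higher, and the B cell list of 5 genes to between 5.07 and 8.42 against 0.906 to 1.24 CPM, with 2 of its 4 tested genes past the test as higher. The part of these cell types in the differences of the megakaryocyte and platelet genes was not tested.

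**Figure D5:**
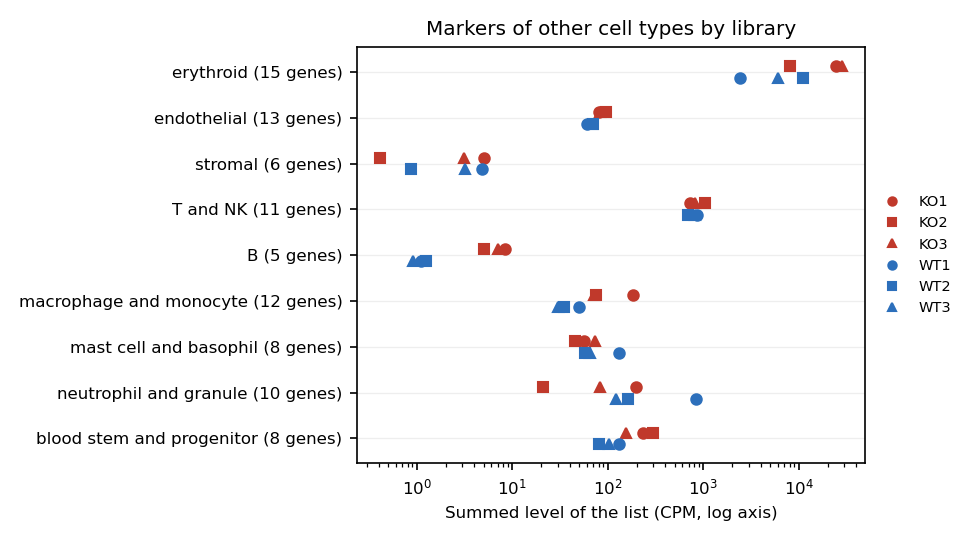
Summed level, in CPM on a log axis, of the marker genes of 9 other cell types in each library, KO in red and WT in blue. The endothelial, B cell, macrophage and stem and progenitor sums of the KO libraries lie above those of the WT libraries, and the other 5 overlap.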

How the data were processed

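The data are counts of reads per gene, which the authors deposited unnormalised. According to the labels' protocols, 1 ng of total RNA was pre-amplified with SMARTer Ultra Low Input v4, 150 pg of cDNA went into Nextera XT libraries, and single-end reads of 100 nt were made. This chemistry marks no strand and carries no molecular identifiers, so the floor of 3 counts reflects counting error alone. The submitters' processing notes name STAR 2.7.9a, fastp 0.23.1, featureCounts and Subread 2.0.1. The sources used here do not give the build, annotation or settings. Genes passing filterByExpr (minimum count 10, total 15) were 15232 of 53819. KO and WT were compared in edgeR 4.0.16 (R 4.3.3) with TMM, robust quasi-likelihood tests, no covariate and Benjamini-Hochberg adjustment over all genes tested. The fit was also run on simulated counts, drawn gene by gene without shifts shared by the genes of a library. The outcome is not reported here. CPM values use TMM-scaled sizes. Errors (SE) are the absolute log2 fold change over the square root of the quasi-likelihood F. The 95% intervals were built from this SE and a t quantile. Alternatives were DESeq2 1.42.0, RLE scaling, other filters, a replicate block and each library left out.

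Given in full were genes past the test, those at 1 CPM or more without overlap, and the 3 of highest level in each role. Of the other lineage lists, genes past the test or else those of smallest p were named. Members, lists and rules were chosen with earlier results of these data known. Replicate pairs differed beyond sampling noise (chi-square per degree of freedom 32.8 to 113). Exon overlaps come from GENCODE M21. Some genes of the lineage and marker lists are not reported here by name.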

Additional observations from a re-analysis of the deposited data

How the results depend on the processing

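With 3 libraries a group, the counts of calls depended on the test and the libraries more than on scaling. Of the megakaryocyte and platelet genes, 5 were called higher and 2 lower, all 7 also with RLE scaling. DESeq2 called 8 higher and 8 lower, the same 7 among them, beside 1075 and 920 of all genes, and 16 of the other lineage genes. With at least 1 CPM in 3 libraries 4 members were lower, Rap1b and Nrgn added, and 6 other lineage genes were called. Deviations from group means correlated between −0.143 and 0.0632 for same-numbered KO and WT libraries, and between −0.133 and 0.187 for the others. No pairing by replicate number was seen. With 3 libraries a group, whose deviations sum to 0, such correlations cannot exclude one. With the replicate block 1 member was higher, Itga2, and 0 lower (7 at an unadjusted p below 0.05 in edgeR, 8 in DESeq2 without the block), beside 8 higher (0.0525%) and 20 lower (0.131%) of all genes, and 0 of the other lineage genes (17 at an unadjusted p below 0.05, 7 higher and 10 lower). Leaving out 1 library gave 1 to 3 members higher and 0 to 2 lower, 13 to 371 genes higher and 29 to 247 lower, and 0 to 4 other lineage genes. Without the low-count filter Cavin2 and Pf4 lost their calls (adjusted p = 0.129 and 0.0620) and Rap1b gained one. Of 253 refits of 23 members, 197 kept direction and side of the threshold, 37 lost a call, 15 gained one and 4 changed sign: Fermt3 at −0.00247 without KO2, and Bin2 at 0.0011 with the replicate block, 0.106 without KO3 and 0.153 without WT1 (−0.153 without WT2). Genes with a mean under 1 CPM in both groups, such as Gp1bb, Myl9 and P2ry12, are limited by depth.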
